A study of Mus musculus with 12 samples.

Results

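The Hox genes were described here: the protein-coding genes of mouse clusters A to D, taken as every row of the gene table whose Ensembl ID carries a symbol of that form in the GENCODE M21 annotation. There were 39 among the 40384 gene IDs of the table, 11 in cluster A, 10 in B, 9 in C and 9 in D. By paralogue position, 8 were anterior (positions 1 to 3), 15 central (4 to 8) and 16 posterior (9 to 13). The libraries came from 4F2A mouse cells, in which doxycycline switches on transgenic Oct4, Sox2, Klf4 and Myc, the reprogramming factors. There were 12 libraries in 4 groups of 3. MEF were embryonic fibroblasts. The labels of all 4 groups name male, homozygous 4F2A embryos as the source of the fibroblasts. The labels give the same embryo age for all 12 libraries, an age described here as mid-gestation. D4 were cultures at day 4 of reprogramming with the overexpression control OE-NC, D4_DUX were cultures at day 4 labelled OE-DUX with 48 h of overexpression, and iPSC were induced pluripotent stem cells. All groups share one culture text, with LIF and doxycycline at 2 μg/mL, so the labels do not say whether the MEF group was kept without doxycycline. They do not give the origin of the iPSC lines or the age of the iPSC cultures.

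Hox proteins are homeodomain transcription factors that give cells their address along the body axis and the limb. Within a cluster the genes are ordered so that low-numbered paralogues are active early and far forward in the embryo, and high-numbered ones late, towards the tail and the tip of the limb. Cultured fibroblasts keep much of the Hox pattern of the place they came from, and the proteins bind DNA with partners of the Pbx, Meis and Pknox families. Polycomb complexes keep the clusters silent in pluripotent cells.

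Depth was 22530000 to 28130000 counted fragments per library, estimated from the steps between low FPKM values. Values are FPKM, fragments scaled by gene length and library depth, so levels of different genes are compared per length, and values by library are listed in replicate order. Duxf3, the M21 symbol of the Dux gene, was listed at 0 in all 3 libraries labelled D4_DUX and at or below 0.0247 FPKM in the other libraries, under the level of 3 fragments (0.0395 to 0.0494 FPKM). The gene thus went against the label, and a transgene sequence that the table does not count cannot be told apart from no overexpression. The 12 fibroblast markers summed to 6852 to 7024 FPKM in MEF and the 10 pluripotency markers to 4.66 to 5.92. In iPSC the pluripotency markers summed to 1351 to 1499 FPKM (Nanog at 99.2, 111 and 127), while the fibroblast markers summed to 1109 to 1380, after 4246 to 4358 in D4 and 3631 to 3693 in the libraries labelled D4_DUX, with none of the 12 at 0 in any group. Macrophage markers summed to 1531 to 1574 FPKM in MEF, 175 to 210 in D4, 41.9 to 43.1 in the libraries labelled D4_DUX and 127 to 169 in iPSC. The labels do not say whether the libraries of a group are separate cultures, so p-values measure only the spread between these libraries.

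The clusters also hold microRNA genes, shown here because they tie cluster position to Hox transcripts by sequence. MiR-196 is encoded next to the posterior genes and miR-10 next to the central genes. Mature sequences are from RefSeq (GRCm38.p6), 5′ to 3′, with the seed (bases 2 to 8) in capitals. The genes Mir196a-1 in cluster B and Mir196a-2 in cluster C give the same miR-196a-5p, Mir196b lies in cluster A, Mir10a in cluster B and Mir10b in cluster D.

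miR-196a-5p: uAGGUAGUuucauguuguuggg
miR-196b-5p: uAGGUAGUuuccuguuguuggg
miR-10a-5p: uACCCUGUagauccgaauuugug
miR-10b-5p: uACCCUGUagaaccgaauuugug
Hoxb8 site for miR-196a: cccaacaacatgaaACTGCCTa

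Both miR-196 forms share one seed and both miR-10 forms share another. The Hoxb8 site lies in the 3′ UTR of the GENCODE M21 transcript at chr11:96284888-96284909 (GRCm38, plus strand), with the 7 bases opposite the seed in capitals. Of its 22 positions, 21 were Watson-Crick pairs with miR-196a-5p and 1 was a G:U pair. For each of the 39 genes 1 ungapped site was kept, with the most Watson-Crick and G:U pairs together. Among these kept sites the next highest number of Watson-Crick pairs was 15, in Hoxd8. With G:U pairs included, the sites of Hoxa10 and Hoxd3 came next, each with 3 positions unpaired, against 4 in Hoxd8. An exact complement of the miR-196 seed (ACTACCT) occurred in annotated 3′ UTRs of 9 of the 39 Hox genes, 4 times in Hoxa7, and that of the miR-10 seed (ACAGGGT) in 4. A match is a description of letters only, and mature microRNAs are not measured in polyA-selected libraries.

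Promoter windows of 250 bases before the annotated start were matched for 22 of the 39 genes, with 24 windows in the RefSeq table (GRCm38.p6). Their median number of CpG dinucleotides was 12.5, against 6 over all 32851 windows. Windows of genes lower at D4 held from 2 (Hoxd11) to 35 (Hoxa13), and those of genes higher there from 12 (Hoxd3) to 14 (Hoxb4). Hoxa13 and Hoxd13, printed below, had the most of the 24. A link between CpG number and the difference at D4 was not tested. The 3 printed here, each 5′ to 3′ in the direction of the gene with CpG in capitals, belong to a cluster A gene and a cluster D gene that were lower at D4 and to a cluster B gene that was higher there: Hoxa13 at chr6:52260881-52261130 (minus strand, 35 CpG), Hoxd13 at chr2:74667975-74668224 (plus strand, 31 CpG) and Hoxb4 at chr11:96318017-96318266 (plus strand, 14 CpG).

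Hoxa13: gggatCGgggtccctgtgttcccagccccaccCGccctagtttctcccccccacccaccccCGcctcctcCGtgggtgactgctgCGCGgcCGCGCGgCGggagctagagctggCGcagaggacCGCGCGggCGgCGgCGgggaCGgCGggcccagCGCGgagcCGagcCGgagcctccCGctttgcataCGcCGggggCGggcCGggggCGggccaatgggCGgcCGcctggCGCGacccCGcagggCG
Hoxd13: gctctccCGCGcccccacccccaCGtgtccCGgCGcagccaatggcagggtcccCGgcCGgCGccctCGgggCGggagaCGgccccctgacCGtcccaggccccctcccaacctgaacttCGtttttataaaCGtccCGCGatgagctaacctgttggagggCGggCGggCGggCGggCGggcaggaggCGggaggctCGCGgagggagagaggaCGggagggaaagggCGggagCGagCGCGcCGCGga
Hoxb4: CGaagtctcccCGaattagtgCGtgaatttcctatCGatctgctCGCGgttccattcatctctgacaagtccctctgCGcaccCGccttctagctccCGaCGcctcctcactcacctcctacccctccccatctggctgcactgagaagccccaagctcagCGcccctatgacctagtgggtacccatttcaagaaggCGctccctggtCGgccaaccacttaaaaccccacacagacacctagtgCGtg

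The homeodomain-type word TAATNA, searched on both strands, occurred in 25.0% of the Hox windows and in 24.3% of all windows of this length. The word TGATNNAT, of the kind that Pbx and Hox proteins bind together, occurred in 16.7% of the Hox windows (4 of 24) and 7.7% of all windows. The 3 printed windows held neither word.

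MEF expressed genes of all 4 clusters. Mean FPKM was at least 1 for 30 of the 39 genes in MEF, 28 in D4, 30 in the libraries labelled D4_DUX and 21 in iPSC. The summed Hox level was 142 ± 3.38 FPKM in MEF (mean ± SD of 3 libraries here and below), 128 ± 2.05 in D4, 131 ± 1.95 in the libraries labelled D4_DUX and 64.8 ± 4.41 in iPSC. Posterior genes held 47.5% ± 0.357 of the summed level in MEF and 25.9% ± 0.477 in D4. Central genes held 43.1% ± 0.417 in MEF and 63.2% ± 0.274 in D4. The cluster A sum went from 42.1 ± 0.583 to 24.6 ± 0.217 FPKM and the cluster C sum from 35.5 ± 0.824 to 54 ± 2.36, with no overlap between the libraries of the 2 groups in either sum. The order of the 39 genes by mean level had a Spearman rho of 0.85 between MEF and D4, 0.98 between D4 and the libraries labelled D4_DUX and 0.75 between MEF and iPSC, given as descriptions across genes that share libraries and length scaling.

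**Figure D1:**
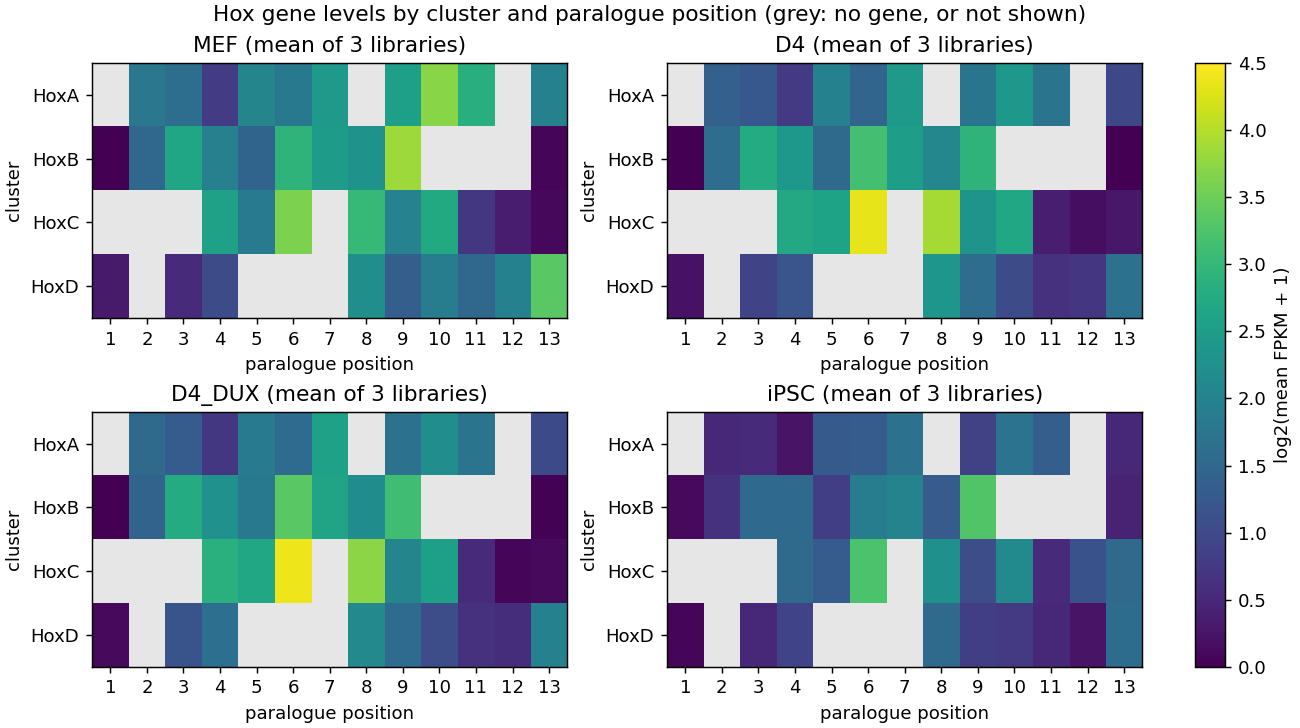
Mean level of each Hox gene as log2(mean FPKM + 1), by cluster (rows) and paralogue position (columns), in the 4 groups of 3 libraries; grey marks a position with no gene or not shown. The bright posterior cells of clusters A and D in MEF, such as Hoxa10 at 12.02 and Hoxd13 at 9.23 FPKM, are darker in the D4 panel (4.25 and 2.22), while the central cells of cluster C are brighter there.

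Genes were tested where 3 or more of the 12 libraries reached 1 FPKM, which held for 33 of the 39 Hox genes. Hoxc13 passed through the iPSC libraries alone, and Hoxd11 and Hoxd12 through the MEF libraries alone, so their differences in those groups follow in part from the threshold. The 6 genes not tested were Hoxa4, Hoxb1, Hoxb13, Hoxc11, Hoxc12 and Hoxd1. Fold changes are log2 differences of FPKM + 1 with the standard error of a limma fit, which understate the change of low genes, and a gene was called where its p, adjusted by Benjamini-Hochberg over the 17114 genes tested, was under 0.05. Some of the genes overlap transcripts on the same or the opposite strand, and the sources used here do not say whether counting used the strand. Shared exon bases came to 62.9% for Hoxd3, 52.9% for Hoxb3, 52.3% for Hoxd4, 35.0% for Hoxa11, 27.3% for Hoxb2 and 27.1% for Hoxa3, and the values of these genes are uncertain to that extent.

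D4 against MEF asked how the fibroblast Hox pattern stood after 4 days of factor expression. Of the tested posterior genes, all 4 of cluster A, 1 of 1 of cluster B and 4 of 5 of cluster D were lower, with Hoxd9 higher, and 3 of 4 central genes of cluster C were higher, with most anterior and central genes of A, B and D at small or uncalled differences. Of the 33 tested genes, 10 were higher and 12 lower at D4, against 34.2% higher and 27.6% lower among all genes tested. As shares of the tested Hox genes these were 30.3% and 36.4%, near the background. By position, of 13 tested posterior genes 9 were lower and 3 higher (median log2 fold change -0.86), and of 14 tested central genes 1 was lower and 5 higher (median 0.13), beside a median of 0.03 over all genes. The 9 include Hoxd11 and Hoxd12, tested through the MEF libraries alone, whose falls follow in part from the threshold. The difference between positions was not tested as such. The 3 posterior genes that were higher became 1 without the first MEF library or without the second D4 library. In bulk RNA, fewer cells of one regional origin and less RNA per cell cannot be told apart.

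**Figure D2:**
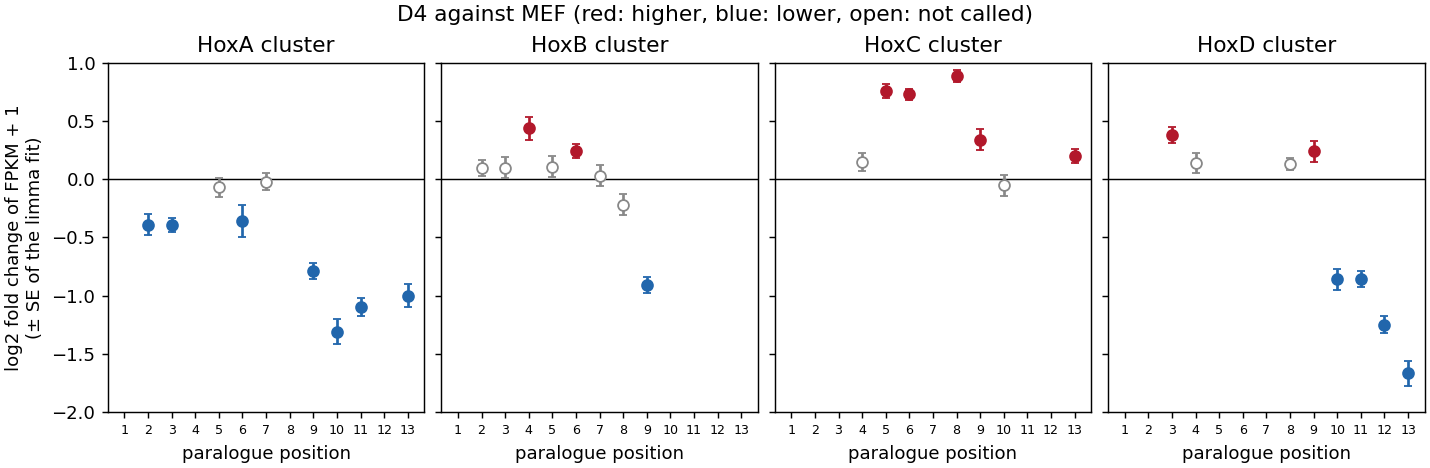
Log2 fold change of FPKM + 1 in D4 against MEF (y axis, ± SE of the limma fit) by paralogue position (x axis) for the tested genes shown of each cluster; red is higher, blue lower and open not called. The 4 posterior genes of cluster A lie between -1.31 and -0.79, and no gene of cluster C is lower.

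In cluster A (chromosome 6) all 4 posterior genes fell. Hoxa10 was at 11.5, 11.8 and 12.8 FPKM in MEF, 4.45, 3.94 and 4.37 in D4, 3.62, 3.5 and 3.67 in the libraries labelled D4_DUX and 3.01, 2.19 and 1.68 in iPSC. This gene (ENSMUSG00000000938, chr6:52231197-52240854), which patterns the lumbar spine and the upper limb segments, was lower in every D4 library than in every MEF library and fell by 1.31 ± 0.11 (SE, adjusted p = 1.24e-06). Hoxa9 was at 4.8, 4.81 and 4.76 FPKM in MEF, 2.18, 2.59 and 2.25 in D4, 2.58, 2.22 and 1.94 in the libraries labelled D4_DUX and 0.883, 0.871 and 0.788 in iPSC. The 3 MEF libraries of Hoxa9, a trunk gene also used by blood progenitors, lay above every other library, and the gene fell by 0.79 ± 0.07 (SE, adjusted p = 1.69e-06) at D4.

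Hoxa11 was at 6.51, 5.8 and 6.1 FPKM in MEF, 2.38, 2.35 and 2.22 in D4, 2.13, 2.55 and 2.21 in the libraries labelled D4_DUX and 1.79, 1.66 and 1.27 in iPSC. Hoxa11, a gene of the forearm and shin segment, fell by 1.10 ± 0.08 (SE, adjusted p = 2.28e-07) at D4 with no overlap between the groups. Hoxa13 was at 3.04, 3.14 and 2.62 FPKM in MEF, 1.03, 0.766 and 1.09 in D4, 1.26, 1.02 and 0.79 in the libraries labelled D4_DUX and 0.471, 0.319 and 0.462 in iPSC. Hoxa13, which patterns the hand and foot plate and the hindgut end, fell by 1.00 ± 0.10 (SE, adjusted p = 2.87e-06) at D4 and kept 32.8% of its MEF level, also with no overlap.

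The anterior and central genes of cluster A had smaller differences. Hoxa2 was at 2.5, 2.65 and 2.12 FPKM in MEF, 1.71, 1.5 and 1.64 in D4, 2.06, 1.66 and 2.07 in the libraries labelled D4_DUX and 0.334, 0.607 and 0.327 in iPSC. Hoxa3 was at 2.21, 2.03 and 2.05 FPKM in MEF, 1.36, 1.4 and 1.35 in D4, 1.64, 1.41 and 1.41 in the libraries labelled D4_DUX and 0.38, 0.569 and 0.425 in iPSC. Hoxa2, which patterns the neural crest of the second arch, fell by 0.39 (adjusted p = 0.00306). Hoxa3, needed for thymus and parathyroid, fell by 0.39 (adjusted p = 0.000143).

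Hoxa5 was at 2.9, 3.37 and 3.09 FPKM in MEF, 2.79, 2.82 and 3.19 in D4, 2.98, 2.27 and 2.56 in the libraries labelled D4_DUX and 1.47, 1.35 and 1.42 in iPSC. Hoxa7 was at 4.44, 3.99 and 4.87 FPKM in MEF, 4.31, 4.33 and 4.43 in D4, 4.91, 4.63 and 5.4 in the libraries labelled D4_DUX and 2.27, 2.32 and 1.98 in iPSC. Hoxa5, a lung and trunk patterning gene, and Hoxa7, a thoracic gene, overlapped between MEF and D4, with log2 fold changes of -0.07 and -0.02 that were not called. Hoxa6 was at 3.05, 2.5 and 2.02 FPKM in MEF, 2.08, 1.79 and 1.39 in D4, 1.73, 2.15 and 2.02 in the libraries labelled D4_DUX and 1.23, 1.93 and 1.29 in iPSC. The D4 and MEF libraries of Hoxa6 overlapped at the ends of their ranges, and its call at D4 (-0.36, adjusted p = 0.0389) was lost without the first MEF library (-0.25, adjusted p = 0.153), without the second MEF library (-0.35, adjusted p = 0.0794), without the second D4 library (-0.37, adjusted p = 0.0689) and without the third D4 library (-0.26, adjusted p = 0.149). Hoxa4 was below 1 FPKM in every library, at 0.476 to 0.93 in MEF and 0.638 to 0.782 in D4.

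In cluster D (chromosome 2) the 4 genes from position 10 on fell. Hoxd13 was at 9.96, 9.44 and 8.29 FPKM in MEF, 2.41, 1.89 and 2.36 in D4, 3.23, 2.71 and 2.92 in the libraries labelled D4_DUX and 2.27, 2.24 and 1.54 in iPSC. Hoxd13 (ENSMUSG00000001819, chr2:74668310-74671599), the digit-patterning gene at the cluster's posterior end, fell by 1.67 ± 0.11 (SE, adjusted p = 9.34e-08) at D4, to 24.0% of its MEF level. Hoxd12 was at 2.76, 2.92 and 3.06 FPKM in MEF, 0.674, 0.628 and 0.626 in D4, 0.482, 0.367 and 0.684 in the libraries labelled D4_DUX and 0.205, 0.18 and 0.15 in iPSC. Hoxd11 was at 2.02, 1.79 and 1.7 FPKM in MEF, 0.527, 0.67 and 0.479 in D4, 0.581, 0.579 and 0.512 in the libraries labelled D4_DUX and 0.465, 0.51 and 0.283 in iPSC. Both are limb genes of the phase in which the posterior cluster is active in the outgrowing bud. Hoxd12 fell by 1.25 ± 0.07 (SE, adjusted p = 2.8e-08) and Hoxd11 fell by 0.86 ± 0.07 (SE, adjusted p = 1.06e-06), with D4 libraries all below 1 FPKM. Both were tested through the MEF libraries alone, so these falls follow in part from the threshold.

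Hoxd10 was at 2.59, 2.66 and 2.82 FPKM in MEF, 0.868, 1.13 and 1.12 in D4, 1.33, 1.09 and 0.838 in the libraries labelled D4_DUX and 0.76, 0.752 and 0.561 in iPSC. Hoxd10, a gene of the lumbar spinal cord and the limb, fell by 0.86 ± 0.09 (SE, adjusted p = 5.71e-06). Hoxd9 was at 1.5, 1.52 and 1.71 FPKM in MEF, 1.93, 2.16 and 2.06 in D4, 1.59, 2.38 and 1.95 in the libraries labelled D4_DUX and 0.71, 0.922 and 0.713 in iPSC. Its neighbour Hoxd9 went the other way, higher in every D4 library, by 0.24 (adjusted p = 0.0321). That call was lost with median-ratio scaling (0.20, adjusted p = 0.0656), without the filter on low values (0.24, adjusted p = 0.0773), and without the first or second MEF library (adjusted p = 0.0903 and 0.0847) or the second or the third D4 library (adjusted p = 0.0928 and 0.0697).

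Hoxd8 was at 3.81, 3.82 and 3.53 FPKM in MEF, 4.28, 4.26 and 3.92 in D4, 3.06, 3.42 and 3.55 in the libraries labelled D4_DUX and 1.88, 1.99 and 1.97 in iPSC. Hoxd4 was at 1.09, 0.918 and 1.22 FPKM in MEF, 1.26, 1.07 and 1.53 in D4, 2.17, 1.9 and 2.26 in the libraries labelled D4_DUX and 0.957, 0.976 and 0.695 in iPSC. Hoxd3 was at 0.51, 0.501 and 0.371 FPKM in MEF, 1.01, 0.784 and 0.92 in D4, 1.36, 1.13 and 1.22 in the libraries labelled D4_DUX and 0.42, 0.536 and 0.341 in iPSC. The central genes Hoxd8 and Hoxd4 were not called at D4 (0.13 and 0.14; Hoxd8 was called higher at 0.16, adjusted p = 0.0385, without the third D4 library and at 0.13, adjusted p = 0.0499, with no mean trend), and Hoxd3, a gene of the neck region, rose by 0.38 ± 0.07 (SE, adjusted p = 0.000591) from a low level. Hoxd1 stayed at or below 0.315 FPKM in all libraries.

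Cluster C (chromosome 15), a trunk and hindlimb cluster without anterior genes, had 5 higher genes and 0 lower among its 7 tested at D4. As shares these were 71.4% and 0%, beside 34.2% and 27.6% of all genes tested. Hoxc8 was at 7.3, 7.06 and 6.82 FPKM in MEF, 13.2, 13.8 and 14.8 in D4, 11.9, 12.5 and 12.3 in the libraries labelled D4_DUX and 3.86, 3.91 and 3.58 in iPSC. Hoxc8 (ENSMUSG00000001657, chr15:102990607-102994111), a thoracic and lumbar gene, had no overlap between MEF and D4 and rose by 0.89 ± 0.05 (SE, adjusted p = 1.79e-08). Hoxc6 was at 11.4, 11.3 and 11 FPKM in MEF, 18.9, 20.7 and 18.2 in D4, 21, 19.2 and 19.2 in the libraries labelled D4_DUX and 8.53, 8.5 and 8.11 in iPSC. Hoxc6, a thoracic gene and the highest Hox gene of D4, rose by 0.73 ± 0.05 (SE, adjusted p = 1.67e-07). Hoxc5 was at 2.45, 2.71 and 2.65 FPKM in MEF, 4.83, 5.26 and 5.22 in D4, 6.12, 5.22 and 5.24 in the libraries labelled D4_DUX and 1.5, 1.42 and 1.53 in iPSC. Hoxc5, a gene of the neck-to-thorax region, rose by 0.76 ± 0.06 (SE, adjusted p = 5.71e-07) and shares 5.37% of its exon bases with Hoxc10.

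Hoxc4 was at 5.2, 4.91 and 4.8 FPKM in MEF, 5.5, 5.75 and 5.57 in D4, 6.97, 6.05 and 5.78 in the libraries labelled D4_DUX and 1.86, 2.24 and 1.68 in iPSC. Hoxc4, just forward of these genes, was higher in each D4 library than in any MEF library, but its difference of 0.15 ± 0.08 on the log2 scale (adjusted p = 0.114) was not called unless the 2 groups were fitted alone (0.15, adjusted p = 0.026). Hoxc9 was at 3.12, 2.82 and 2.98 FPKM in MEF, 3.87, 4.04 and 4.22 in D4, 2.56, 3.1 and 3.81 in the libraries labelled D4_DUX and 1.2, 1.01 and 1.05 in iPSC. Hoxc10 was at 5.74, 5.4 and 5.73 FPKM in MEF, 4.66, 6.02 and 5.55 in D4, 4.61, 5.06 and 4.75 in the libraries labelled D4_DUX and 3.66, 2.83 and 3.74 in iPSC. Hoxc9, a thoracic gene, rose by 0.34 (adjusted p = 0.00654), while Hoxc10, of the lumbar and hindlimb region, overlapped between the groups (-0.05). The difference between the posterior genes of cluster C and those of A and D was not tested as such.

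At the posterior end of cluster C levels were low outside iPSC. Hoxc13 was at 0.018, 0.156 and 0.0289 FPKM in MEF, 0.198, 0.286 and 0.188 in D4, 0.0459, 0.068 and 0.119 in the libraries labelled D4_DUX and 2.04, 1.84 and 1.93 in iPSC. Hoxc12 was at 0.516, 0.0207 and 0.31 FPKM in MEF, 0.129, 0.137 and 0.117 in D4, 0.109, 0.0361 and 0.0405 in the libraries labelled D4_DUX and 1.59, 1.33 and 0.665 in iPSC. Hoxc13, a hair and nail gene, rose by 0.20 at D4 from a mean of 0.0675 ± 0.0766 to 0.224 ± 0.0541 FPKM. These levels rest on 1, 9 and 2 fragments in the MEF libraries and 11, 17.5 and 11.5 in D4. The call (adjusted p = 0.0146) was lost with quantile normalization (0.14, adjusted p = 0.0923), without the first or the third MEF library (0.17 each, adjusted p = 0.0621 and 0.0569), and without the second D4 library (0.16, adjusted p = 0.0612). Hoxc11 lay between 0.288 and 0.844 FPKM in all libraries.

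In cluster B (chromosome 11) the posterior gene Hoxb9 fell and the anterior and central genes rose or were not called. Hoxb9 was at 13.48, 13.2 and 13.4 FPKM in MEF, 6.28, 6.53 and 7.13 in D4, 8.6, 7.27 and 7.27 in the libraries labelled D4_DUX and 8.66, 9.24 and 8.13 in iPSC. Hoxb9 (ENSMUSG00000020875, chr11:96271457-96276595), a thoracic gene with the highest Hox level of MEF, fell by 0.91 ± 0.07 (SE, adjusted p = 2.5e-07) at D4 with no overlap. Hoxb4 was at 3.14, 2.17 and 3.42 FPKM in MEF, 4.43, 4.06 and 4.28 in D4, 3.77, 3.68 and 4.08 in the libraries labelled D4_DUX and 1.8, 2 and 1.94 in iPSC. Hoxb6 was at 6.41, 6.48 and 6.8 FPKM in MEF, 7.93, 8.03 and 7.76 in D4, 8.66, 9.2 and 9.72 in the libraries labelled D4_DUX and 2.98, 2.68 and 2.4 in iPSC. Hoxb4, which is also known for expanding blood stem cells, rose by 0.44 (adjusted p = 0.00262), and Hoxb6, a trunk gene, rose by 0.24 (adjusted p = 0.00442).

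Hoxb2 was at 1.99, 1.85 and 1.71 FPKM in MEF, 2.04, 2.05 and 2.07 in D4, 1.59, 1.86 and 1.66 in the libraries labelled D4_DUX and 0.715, 0.567 and 0.459 in iPSC. Hoxb3 was at 5.28, 5.11 and 5.7 FPKM in MEF, 6.37, 5.56 and 5.48 in D4, 5.61, 6.38 and 5.52 in the libraries labelled D4_DUX and 2.31, 1.74 and 1.61 in iPSC. Hoxb5 was at 1.78, 1.41 and 1.97 FPKM in MEF, 1.92, 2.13 and 1.73 in D4, 2.37, 2.66 and 2.56 in the libraries labelled D4_DUX and 0.776, 0.628 and 0.957 in iPSC. These hindbrain and neck genes were not called at D4, with log2 fold changes of 0.10, 0.10 and 0.11. Hoxb7 was at 5.31, 4.01 and 4.3 FPKM in MEF, 4.7, 4.27 and 5 in D4, 5.39, 5.38 and 4.71 in the libraries labelled D4_DUX and 3.43, 2.87 and 2.79 in iPSC. Hoxb8 was at 4.08, 3.66 and 3.9 FPKM in MEF, 2.7, 3.24 and 3.72 in D4, 3.39, 3.56 and 3.77 in the libraries labelled D4_DUX and 1.64, 1.24 and 1.48 in iPSC. Hoxb7 overlapped between the groups (0.03), and Hoxb8, the gene with the miR-196 site shown above, had a log2 difference of -0.22 ± 0.09 (adjusted p = 0.0508), which was not called. It was called lower under 5 alternatives: median-ratio scaling (-0.28, adjusted p = 0.0166), quantile normalization (-0.25, adjusted p = 0.0264), protein-coding genes alone (-0.22, adjusted p = 0.0309), no mean trend in the variance prior (-0.22, adjusted p = 0.0485) and without the third D4 library (-0.30, adjusted p = 0.0102). Hoxb1 was at 0 in all MEF libraries and at or below 0.00865 FPKM in D4, and Hoxb13 was at or below 0.0967 FPKM in both groups.

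**Figure D3:**
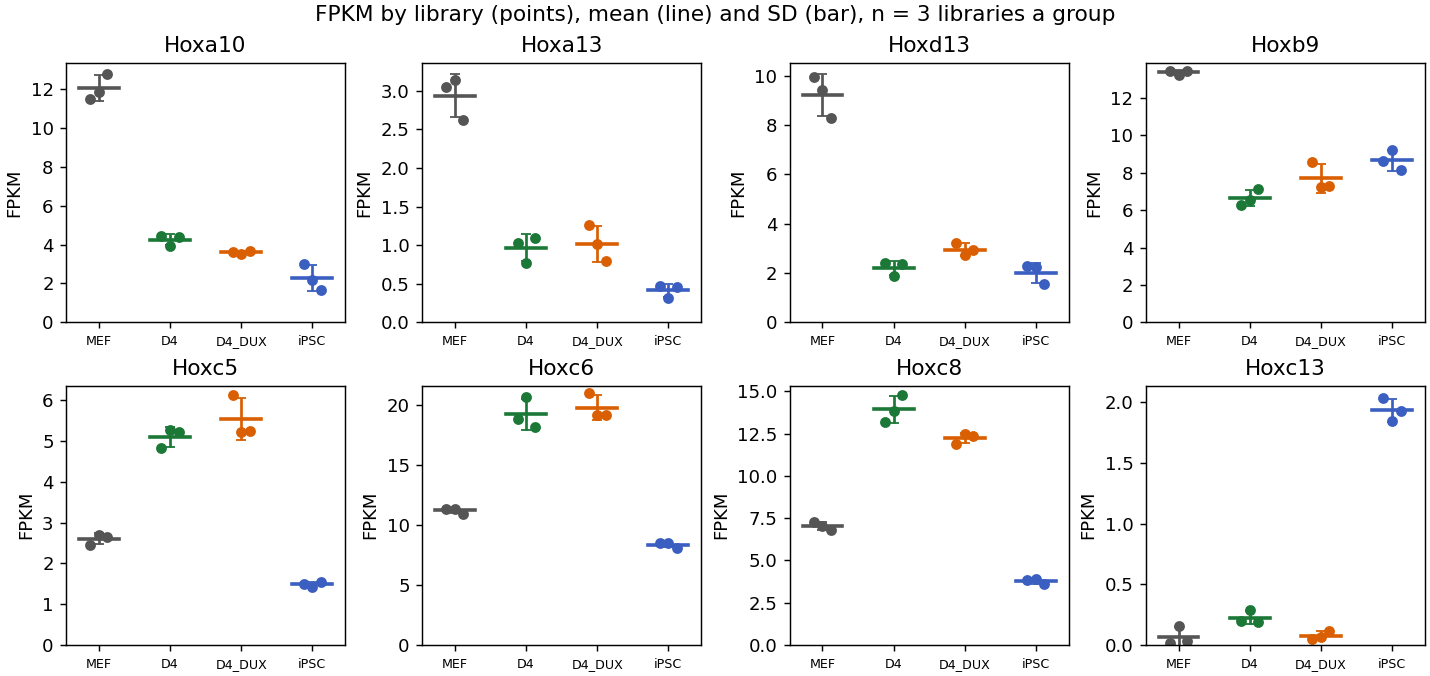
FPKM of 8 Hox genes in each library (points), with the group mean (line) and SD (bar), 3 libraries a group; each y axis starts at 0. Hoxa10, Hoxa13, Hoxd13 and Hoxb9 are highest in MEF, Hoxc5, Hoxc6 and Hoxc8 in the day 4 groups, and Hoxc13 in iPSC (1.84 to 2.04 FPKM).

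Other regional and cell-type genes moved between the same groups. Among 18 tested limb transcription factors, 9 were higher and 5 lower at D4 (50% and 27.8%, beside 34.2% and 27.6% of all genes tested). Tbx4, a hindlimb factor, was at 6.74, 5.88 and 5.93 FPKM in MEF, 1.79, 1.95 and 2.23 in D4, 2.11, 2.18 and 2.03 in the libraries labelled D4_DUX and 2, 1.56 and 1.47 in iPSC, and fell by 1.26 (adjusted p = 1.07e-07). Pitx1, which specifies the hindlimb, fell by 0.47 and the forelimb factor Tbx5 rose by 0.31. Alx4 and Prrx1, limb bud mesenchyme factors, rose by 1.07 and 0.48, and Lhx9, a distal limb factor, fell by 0.86.

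Of 4 tested head factors 0 were higher and 3 lower at D4 (0% and 75%, beside 34.2% and 27.6% of all genes tested). Of 6 tested factors of viscera and axial mesoderm 3 were higher and 1 lower (50% and 16.7%, beside the same background), where Foxf1 and Wt1 rose by 0.76 and 0.75 and Osr1 fell by 0.75. All 3 tested chondrocyte markers were lower (summed over the 6 listed, 5.61 to 5.76 FPKM in MEF and 1.32 to 1.54 in D4), Sox9 at 3.42, 3.37 and 3.73 FPKM in MEF and 0.848, 0.872 and 1.06 in D4. All 12 macrophage markers were lower, Lyz2 by 3.13 and Itgam by 2.01, and none of the 12 was at 0 in either group. Of the 12 fibroblast markers 9 were lower and 3 higher (75% and 25%). Beside these counts and those of the chondrocyte and macrophage markers, 27.6% of all genes tested were lower and 34.2% higher. The part of these shifts in the Hox differences was not tested.

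D4_DUX against D4 asked how day 4 cultures labelled as overexpressing Dux, a factor of the early embryo's genome activation, differed from their control. In the libraries labelled D4_DUX, 6 of 33 tested genes were higher than in D4 and 4 were lower, against 20.1% higher and 15.4% lower among all genes tested. The log2 fold changes of FPKM + 1 lay between -0.29 and 0.45. The added 1 lowers the change of low genes: with a pseudocount of 0.1 the value of Hoxd4 was 0.68 and that of Hoxc13 -0.88, and Hoxc13 stood at 34.6% of its D4 mean. Hoxc13, tested through the iPSC libraries alone, rests here on few fragments. It had 3, 4.5 and 7 in the libraries labelled D4_DUX and 11, 17.5 and 11.5 in D4. None of the 10 tested genes of cluster A was called, with an unadjusted p under 0.05 for 1 of them (Hoxa7), and 1 gene of the cluster was called in 1 alternative: Hoxa10, with only the 2 groups in the fit (-0.19, adjusted p = 0.0379).

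The calls that held under every alternative in which the gene was tested were those of 2 neighbours in cluster D. Hoxd4 rose by 0.45 ± 0.09 (SE, adjusted p = 0.00294), with each library labelled D4_DUX (1.9 to 2.26 FPKM) above each D4 library (1.07 to 1.53). Hoxd8 fell by 0.25 ± 0.05 (SE, adjusted p = 0.00478), from 3.92 to 4.28 FPKM in D4 to 3.06 to 3.55. Hoxd3, which shares exons with Hoxd4, rose by 0.23 (adjusted p = 0.0252). At the posterior end Hoxd13 rose by 0.30 at an adjusted p of 0.0498, at 32% of the MEF mean.

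In cluster B, Hoxb5 rose by 0.27 (adjusted p = 0.036), Hoxb6 by 0.19 (adjusted p = 0.0251) and Hoxb9 by 0.19 (adjusted p = 0.0464). In cluster C, Hoxc9 fell by 0.29 (adjusted p = 0.0299), Hoxc13 by 0.18 (adjusted p = 0.0375) and Hoxc8 by 0.17 (adjusted p = 0.0149). The 8 calls other than Hoxd4 and Hoxd8 were lost under at least 1 alternative. Of the uncalled genes, Hoxb2 was called lower under 5 alternatives, median-ratio scaling among them (-0.20, adjusted p = 0.038), and Hoxd12 without the third library labelled D4_DUX (-0.21, adjusted p = 0.0266). The count of higher genes was 2 or 3 without any 1 of the 6 libraries of the 2 groups, 2 without the first or the third D4 library or the first or the third library labelled D4_DUX. The count of lower genes was 2 without the second D4 library and 1 without the third D4 library or the first labelled D4_DUX.

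**Figure D4:**
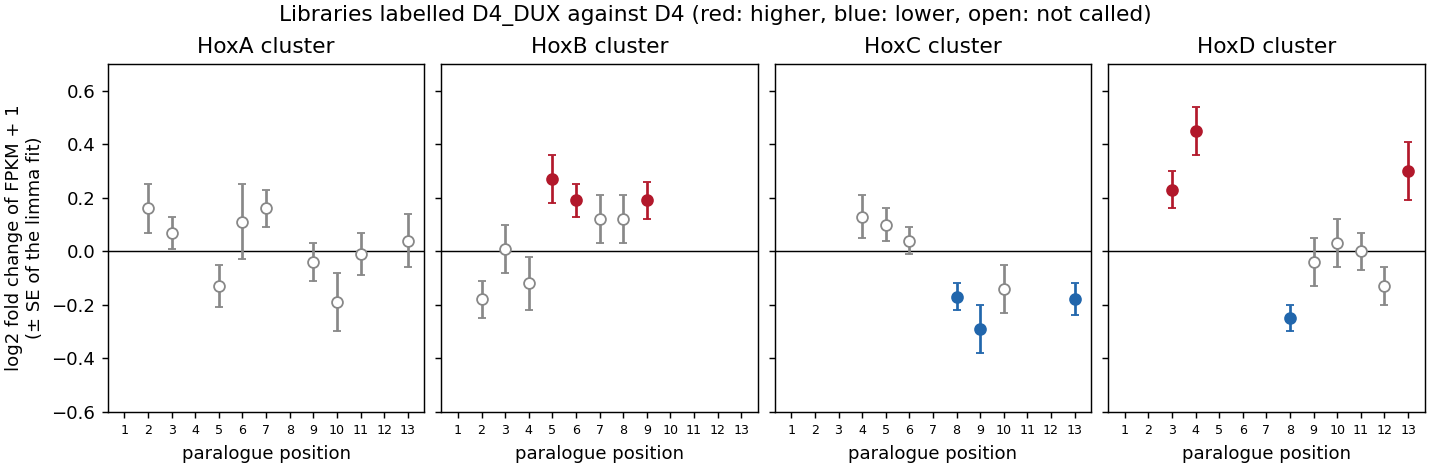
Log2 fold change of FPKM + 1 in the libraries labelled D4_DUX against D4 (y axis, ± SE of the limma fit) by paralogue position (x axis) for the tested genes shown of each cluster; red is higher, blue lower and open not called. All values lie between -0.29 and 0.45, and all points of cluster A are open.

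Beside these, all 12 macrophage markers were lower in the libraries labelled D4_DUX (median log2 fold change -1.37), all 4 tested neural markers higher (summed over the 9 listed, 54.7 to 57.5 FPKM in D4 and 78.8 to 84.5), and 7 of 12 fibroblast markers lower. Of 18 tested limb factors 0 were higher and 1 was lower in the limma fit (0% and 5.56%, beside 20.1% and 15.4% of all genes tested): Shox2, a factor of the proximal limb, fell by 0.64, from 14.3, 14 and 13.4 FPKM in D4 to 8.56, 8.97 and 8.24. Genes of retinoic acid, the signal that induces anterior Hox genes, split. Aldh1a2, which makes it, fell by 0.97, Cyp26b1, which degrades it, fell by 0.79, and Rdh10, which makes its precursor, rose by 0.49. The part of these in the Hox values was not tested.

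iPSC against MEF and iPSC against D4 asked how much of the fibroblast Hox pattern was measured in the pluripotent cells. Nearly all tested Hox genes were lower in iPSC, but many were still counted at several FPKM. Against MEF, 1 of 33 tested genes was higher and 29 were lower, against 51% higher and 31.2% lower among all genes tested. The median log2 fold change was -0.77 for the Hox genes and 0.21 for all genes, and the median Hox gene stood at 45.2% of its MEF mean. By cluster, the median was 23.7% for A, 43.4% for B, 57.1% for C and 37.7% for D. The all-genes median depended on scaling: it was 0.06 with median-ratio scaling and -0.07 with quantile normalization, where 46.6% of calls were higher in place of 62.1%. Against D4 the share of higher calls was 46.7% with quantile normalization in place of 58.8%.

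Posterior genes of clusters A and D were among the lowest against MEF. Hoxd12 stood at 6.12% of its MEF mean and fell by 1.73 ± 0.07 (SE, adjusted p = 4.52e-10). It was tested through the MEF libraries alone, so this fall follows in part from the threshold. Hoxa10 fell by 2.00 ± 0.11 (SE, adjusted p = 9.29e-09), and its iPSC libraries, at 1.68 to 3.01 FPKM, lay below all D4 libraries. Hoxa2 stood at 17.4% and Hoxa9 at 17.7% of MEF. At the other end, Hoxc6 kept 74.6%, Hoxb7 66.7%, Hoxb4 65.7% and Hoxb9 64.8%, each still called lower. Hoxd3 and Hoxd4 were not called (-0.03 and -0.15), but both were called lower with quantile normalization (-0.52, adjusted p = 1.08e-05, and -0.60, adjusted p = 3.88e-05), and Hoxd4 also with median-ratio scaling (-0.24, adjusted p = 0.0261).

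Against D4, 2 genes were higher and 28 lower, with 48.5% higher and 33.9% lower among all genes tested. Cluster C had the lowest median of the 4 clusters, 34.4% of its D4 level. Hoxc8 fell by 1.64, Hoxc5 by 1.30 and Hoxb6 by 1.27. Hoxb9 rose by 0.34 (adjusted p = 0.000471), to 8.13 to 9.24 FPKM in iPSC from 6.28 to 7.13 in D4. That call was lost with quantile normalization (0.13, adjusted p = 0.0771). Hoxa6, Hoxd11 and Hoxd13 were not called (-0.15, -0.14 and -0.10). With quantile normalization all 3 were called lower, Hoxa6 at -0.47 (adjusted p = 0.0107), Hoxd11 at -0.55 (adjusted p = 8.94e-06) and Hoxd13 at -0.39 (adjusted p = 0.0047). Hoxd11 was also called lower with median-ratio scaling (-0.17, adjusted p = 0.044) and without the second iPSC library (-0.18, adjusted p = 0.0499). The calls of Hoxd10 (-0.27) and Hoxd4 (-0.28) were lost without the third iPSC library (adjusted p = 0.0621 and 0.054), without the third D4 library (adjusted p = 0.0516 and 0.0561) and, for Hoxd10, without the second D4 library (adjusted p = 0.0523).

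The most posterior genes of cluster C and both ends of cluster B were highest in iPSC. Hoxc13 rose by 1.46 against MEF (adjusted p = 6.4e-10) and by 1.26 against D4, and each iPSC library (1.84 to 2.04 FPKM) was above every other library (at most 0.286). Hoxc13 was tested through the iPSC libraries alone, so these differences follow in part from the threshold. Among genes under the test's threshold, Hoxc12 lay at 1.59, 1.33 and 0.665 FPKM in iPSC and at most 0.516 elsewhere, Hoxb13 at 0.405, 0.338 and 0.276 and at most 0.0967 elsewhere, and Hoxb1, the rhombomere gene, at 0.0537, 0.116 and 0.0902 and at most 0.0162 elsewhere. The Hoxb1 values rest on 3 to 6.5 fragments a library, the lowest at the level of 3 fragments. Of the other genes not tested, Hoxa4 and Hoxd1 had their lowest mean in iPSC (0.178 and 0.0434 FPKM), and the iPSC mean of Hoxc11 (0.459) lay between those of D4 and MEF.

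**Figure D5:**
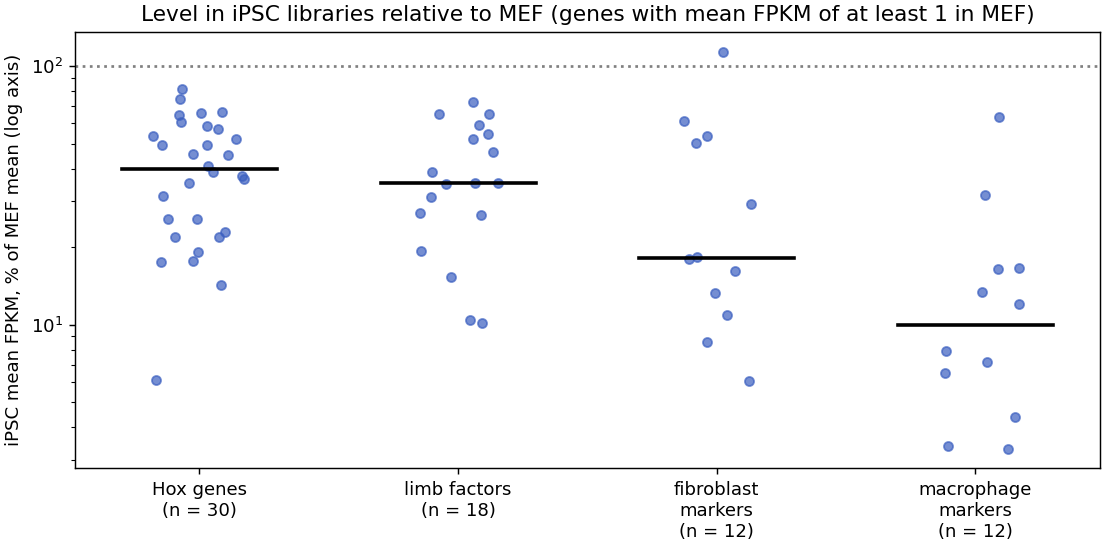
Mean FPKM in iPSC as a percent of the MEF mean (y axis, log scale) for genes with a MEF mean of at least 1 FPKM, by gene list (x axis); each point is a gene, the bar is the median and the dotted line marks 100%. Medians were 39.9% for 30 Hox genes, 35.3% for 18 limb factors, 18.2% for 12 fibroblast markers and 9.9% for 12 macrophage markers.

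RNA of the genes listed as fibroblast markers was also counted in the iPSC libraries. The median log2 fold change of the 12 fibroblast markers in iPSC against MEF was -2.41. Of them 11 were lower and 1 higher (91.7% and 8.33%, beside 31.2% and 51% of all genes tested). The higher one was Dcn, a matrix proteoglycan, at 212, 226 and 194 FPKM in iPSC and 196, 176 and 186 in MEF. Col1a1, a main fibroblast collagen chain, stood at 6.04% of its MEF mean, and Prrx1, a limb mesenchyme factor, at 54.8%. All 18 tested limb factors (100%, beside 31.2% of all genes tested) were lower in iPSC than in MEF, at a median of 37.2% of MEF. The 30 Hox genes with a MEF mean of at least 1 FPKM had a median of 39.9%, between 6.1% and 81.5%. Fibroblasts left in the cultures and Hox transcription in the pluripotent cells cannot be told apart in these libraries.

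Hox cofactors of the Pbx, Meis and Pknox families, 9 genes, all tested, changed in both directions. At D4, 4 were higher and 3 lower (44.4% and 33.3%, beside 34.2% and 27.6% of all genes tested). Pknox2 fell by 0.84 and Meis1 by 0.57, and Pbx4 rose by 0.57. In the libraries labelled D4_DUX 1 was higher and 1 lower than in D4 (11.1% each, beside 20.1% and 15.4% of all genes). Meis2, a partner of proximal limb cells, rose by 0.18.

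Against MEF, 6 cofactors were lower and 3 higher in iPSC (66.7% and 33.3%, beside 31.2% and 51% of all genes). Meis2 fell by 0.90, Meis1 by 0.83 and Meis3 by 0.64.

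Of the list of noncoding and neighbour genes of the clusters, 27 were in the table and 17 tested. At D4, 7 were higher and 4 lower (41.2% and 23.5%, near the 34.2% and 27.6% of all genes). Hoxa11os, the antisense transcript of Hoxa11, was at 3.3, 3.25 and 3.38 FPKM in MEF, 1.14, 1.17 and 1.2 in D4, 1.41, 1.5 and 1.38 in the libraries labelled D4_DUX and 0.959, 0.806 and 0.811 in iPSC, and fell by 0.99 at D4 beside Hoxa11, whose exons it overlaps. Hotairm1, a noncoding transcript of cluster A, was at 1.74, 1.74 and 1.84 FPKM in MEF, 3.06, 3.3 and 3.27 in D4, 3.09, 2.91 and 3.41 in the libraries labelled D4_DUX and 1.25, 1.15 and 0.743 in iPSC, and rose by 0.60 at D4. In the libraries labelled D4_DUX, Hoxb5os rose by 0.65 beside Hoxb5, with which it shares 3.59% of the Hoxb5 exon bases. For such pairs, reads of the gene and of its antisense partner cannot be told apart if strand was not used.

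Halr1, a noncoding gene beside the cluster A anterior end, had the highest fold change of the 17 in iPSC. Its level was 0.0679, 0.326 and 0.109 FPKM in MEF, 0.136, 0.575 and 0.246 in D4, 0.364, 0.266 and 0.341 in the libraries labelled D4_DUX and 41.6, 45.5 and 48.6 in iPSC, and it rose by 5.31 ± 0.12 (SE, adjusted p = 3.29e-12) against MEF. Halr1 was tested through the iPSC libraries alone, so its rise and its rank follow in part from the threshold. Hoxb3os fell by 1.18 and Atp5g1, an ATP synthase gene near cluster B, rose by 1.27. The row of the miR-196a hairpin gene of cluster B, Mir196a-1, was at 15, 19.4 and 11.2 FPKM in MEF, 21.3, 23.1 and 21.9 in D4, 26, 27.5 and 30.1 in the libraries labelled D4_DUX and 19.2, 13.2 and 13.4 in iPSC. This row was chosen after its values were seen, for the sequence shown above. It rose by 0.54 at D4 (adjusted p = 0.0162). Such a row counts longer polyadenylated RNA over the hairpin and not the mature microRNA.

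Of 32 listed regulators of Hox genes, 28 were tested. At D4, 7 were higher and 11 lower (25% and 39.3%, beside 34.2% and 27.6% of all genes). Ezh1 and Ring1, Polycomb enzymes, rose by 1.02 and 0.84, Rdh10 rose by 0.64, and the Polycomb subunit Phc1 fell by 0.73. In the libraries labelled D4_DUX, 7 were higher and 2 lower than in D4 (25% and 7.14%, beside 20.1% and 15.4% of all genes). Men1, a partner of the Trithorax enzyme Kmt2a, rose by 0.26. In iPSC, 16 were higher and 8 lower than in MEF (57.1% and 28.6%, near the 51% and 31.2% of all genes). The Polycomb genes Phc1, Cbx7 and Jarid2 rose by 4.05, 3.99 and 3.59. Cdx1, a caudal-type activator of trunk Hox genes, was listed at 0 in all 9 libraries of the other groups and at 2.65, 2.69 and 2.92 FPKM in iPSC. Cdx1 was tested through the iPSC libraries alone, so its place among the higher genes follows in part from the threshold.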

How the data were processed

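The 12 libraries were polyA-selected and sequenced as read pairs on a NovaSeq, per the labels. The authors deposited 1 table of FPKM per Ensembl gene ID, which was used as deposited. The genome build was mm10, per the submitters' processing notes. Not given in the sources used here were the aligner, counter, annotation and use of strand. Symbols came from GENCODE M21, which matched 40225 of 40384 IDs. Fragment numbers were estimated from the steps between FPKM values. Of the values, 43.4% to 45.5% were whole multiples of a library's step within 0.01, so the fragments were not taken as counts and no count test was run. Genes that reached 1 FPKM in 3 or more libraries were tested with limma 3.58.1 in R 4.3.3. The test used log2(FPKM + 1), all 4 groups in 1 fit and Benjamini-Hochberg adjustment over 17114 genes. The script was tested on simulated data. The 3′ UTRs were the GENCODE M21 transcript bases after the stop codon, and motif and seed searches asked for exact matches.

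The 39 Hox genes and the other gene lists were chosen with earlier results of these data known. By rule, every Hox gene was accounted for, those with a group mean of at least 1 FPKM by library. From each other list up to 4 genes with the smallest adjusted p in a comparison were named, and Meis1, Meis2, Tbx5, Pitx1 and Tbx4 always. Some genes that the rule names are not reported here, though they stand in the counts and sums. Nanog, Dcn and Mir196a-1 fall outside the rule and were chosen after their values were seen. Within a group, libraries correlated at 0.9936 to 0.9966 and 0 of 66 pairs of columns were identical. Alternatives were other pseudocounts (0.1 and 0.5), filters, scalings and variance priors, protein-coding genes alone, the 2 groups of a comparison alone, the replicate number as a block, and each library left out in turn.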

Additional observations from a re-analysis of the deposited data

How the results depend on the processing

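Of 90 called results of the Hox genes reported over the 4 comparisons, 0 changed direction under any alternative run and 14 lost their call under at least 1: 3 in D4 against MEF, 8 in D4_DUX against D4, 0 in iPSC against MEF and 3 in iPSC against D4. Of the uncalled results, 11 were called under at least 1. With FPKM of at least 5 only 12 Hox genes were tested. The counts were then 4 higher and 4 lower in D4 against MEF (posterior genes 0 and 4), 3 and 1 in D4_DUX against D4, 0 and 12 in iPSC against MEF, and 1 and 10 in iPSC against D4. With no filter, 39 were tested, with 1 higher and 2 lower in D4_DUX against D4, 4 higher in iPSC against MEF and 5 higher in iPSC against D4. With FPKM of at least 0.5, 2 were higher in iPSC against MEF. In D4_DUX against D4, 3 were higher with a pseudocount of 0.1, with median-ratio scaling and with quantile normalization. Quantile normalization left 1 higher in iPSC against D4. The causes were not tested beyond the number of genes. With 1 library left out, posterior genes higher in D4 against MEF numbered 1 to 3, and in D4_DUX against D4 2 to 3 were higher and 1 to 5 lower. Directions turned for uncalled genes alone. With 1 library left out these ran, in D4 against MEF, from -0.12 to 0.03 for Hoxc10, -0.08 to 0.04 for Hoxa7 and -0.03 to 0.13 for Hoxb7. In D4_DUX against D4 they ran from -0.00 to 0.09 for Hoxc6, -0.04 to 0.12 for Hoxa13, -0.06 to 0.03 for Hoxa11, -0.12 to 0.02 for Hoxa9, -0.04 to 0.05 for Hoxd11, -0.14 to 0.05 for Hoxd9, -0.05 to 0.07 for Hoxb3 and -0.05 to 0.12 for Hoxd10. They ran from -0.08 to 0.02 for Hoxd3 in iPSC against MEF, and from -0.18 to 0.02 for Hoxd13 in iPSC against D4. Median-ratio scaling gave -0.03 for Hoxb7 in D4 against MEF, and -0.01 for Hoxd11 and -0.02 for Hoxb3 in D4_DUX against D4. Quantile normalization gave -0.01 for Hoxb7 and -0.02 for Hoxb3. The 18 same-number correlations lay between -0.15 and 0.07, none over 0.1, and the 36 other-number ones between -0.13 and 0.22. They gave no sign that the replicate numbers pair the libraries, though with 3 libraries a group a small shared effect may be missed. With the replicate number as a block, 10 were higher and 12 lower in D4 against MEF (posterior genes 3 and 9), 4 and 3 in D4_DUX against D4, 1 and 29 in iPSC against MEF, and 2 and 28 in iPSC against D4. Depth limits the genes below 1 FPKM, and with 3 libraries a group small differences may be missed.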
